A study of Mus musculus with 8 samples.

Results

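Proteins that neutrophils store in granules or carry in their cytosol, and chemokines that platelets store in granules, were followed in cultured mouse optic nerves through 8 genes: S100a8, S100a9, Camp, Ltf, Ngp, Mmp8, Ppbp and Pf4. They are 8 of the 18193 genes that the arrays name by a probe set annotated to a single symbol. Each of the 8 has 1 such probe set, and that of S100a8 has the suffix _s_at, which marks probes that may match more than a single transcript. The lithium-treated nerves (4 samples) were set against control nerves (4 samples), and the signals of S100a8, Camp, Ltf and Ppbp were lower in lithium, whereas Pf4 averaged 1111 in lithium and 1023 in controls and did not pass the test.

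The lithium nerves were optic nerves of C57BL/6 mice aged 35 to 45 days, kept in organotypic culture for 3 days with 20 mM lithium chloride, and the control nerves were of the same strain, age and time in culture, with saline. No nerve was measured without culture, so that both groups share what 3 days in the dish does. Total RNA of each sample was hybridised to 1 Affymetrix Mouse 430 2.0 array, which gave 4 lithium and 4 control arrays. The labels give 6 nerves for each sample, while the series description gives 6 mice for each group, and the study's methods differ from the labels on the strain (C57/BL10), the RNA kit and the number of nerves. Whether samples within a group were separate animals or cultures is not stated, and p-values here therefore speak only of the spread among the 4 samples of each group, which could be technical.

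Neutrophils fill their granules in stages as they mature in the bone marrow. Proteases and peroxidase are packed first, then lactoferrin and cathelicidin, and gelatinase last, and the transcripts of the first group fade before the cell enters the blood. Calprotectin, the complex of S100a8 and S100a9, lies in the cytosol of neutrophils and monocytes and binds calcium and zinc. Platelets inherit Ppbp and Pf4 from megakaryocytes and release both from alpha granules, and in mice Pf4 is also made by macrophages of the meninges and vessel walls.

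The deposited values are MAS5 signals, which are intensities on a linear scale. The mean of each array without its lowest and highest 2% of signals was 100, and the median signal was 12.3 to 16.5 on lithium arrays and 14.8 to 17.5 on control arrays. As a level of background, the brightest of 27 poly-A control probe sets (bacterial transcripts) had a signal of 3.56 to 4.33 on lithium arrays and 2.13 to 5.64 on control arrays, and this is called the poly-A level. The tissue label was checked on the astrocyte filament gene Gfap, with a signal of 1487 ± 170 in lithium and 1593 ± 97.1 in controls (SD, n = 4 each), and on the myelin gene Mog, with 1274 ± 139 in lithium and 1245 ± 43.5 in controls. All 11 optic nerve markers measured lay above the poly-A level on every array, and 0 passed limma's adjusted p. At an unadjusted p under 0.05, 3 of them were lower and 0 higher. The 3 with the lowest log2 differences are genes of fibroblasts or progenitors. Cspg4, also a progenitor marker, averaged 69.2 ± 13.8 in lithium and 64.9 ± 15.2 in controls (limma adjusted p = 0.873; SD, n = 4 each). Col1a1 averaged 284 ± 121 in lithium and 797 ± 86.3 in controls (limma adjusted p = 0.0846), Pdgfra 208 ± 117 in lithium and 527 ± 83.5 in controls (adjusted p = 0.124), and Dcn 618 ± 299 in lithium and 1204 ± 251 in controls (adjusted p = 0.194; SD, n = 4 each). The part of these cells in the values of the 8 genes was not tested.

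Of the 8 genes, 4 were lower in lithium at an adjusted p under 0.05 from limma, with Benjamini-Hochberg adjustment over all 45037 probe sets tested, against 2.05% of all genes. The 8 genes were chosen with earlier results of these data known, so that the shares of all genes are given for scale and not as a test. In the fit blocked by replicate number the count was 1 of 8, against 0.346% of all genes. The count was 0 without control array 3, 1 without lithium array 1, control array 1 or control array 4, and 3 or 4 without 1 of the other arrays. Calls fell among all probe sets too, from 1050 in either direction as reported to 124 with the block and 169 to 617 in the fits without 1 array. As reported, none of the 8 was higher, against 1.18% of all genes. At an unadjusted p under 0.05 limma gave 5 of the 8 lower and 0 higher, against 12.6% of all genes lower and 9.38% higher. For 5 of the 8, every lithium signal lay below every control signal, which held for 8.92% of all genes. The median log2 difference (lithium minus control) was -2.59 over the 8 genes and -0.00 over all genes. S100a8 and Ppbp also passed a fold change of 2 and a mean signal of 200 in the higher group, which 0.242% of all genes did in the same direction. In these whole nerves, fewer cells of a type cannot be told apart from less RNA per cell.

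**Figure D1:**
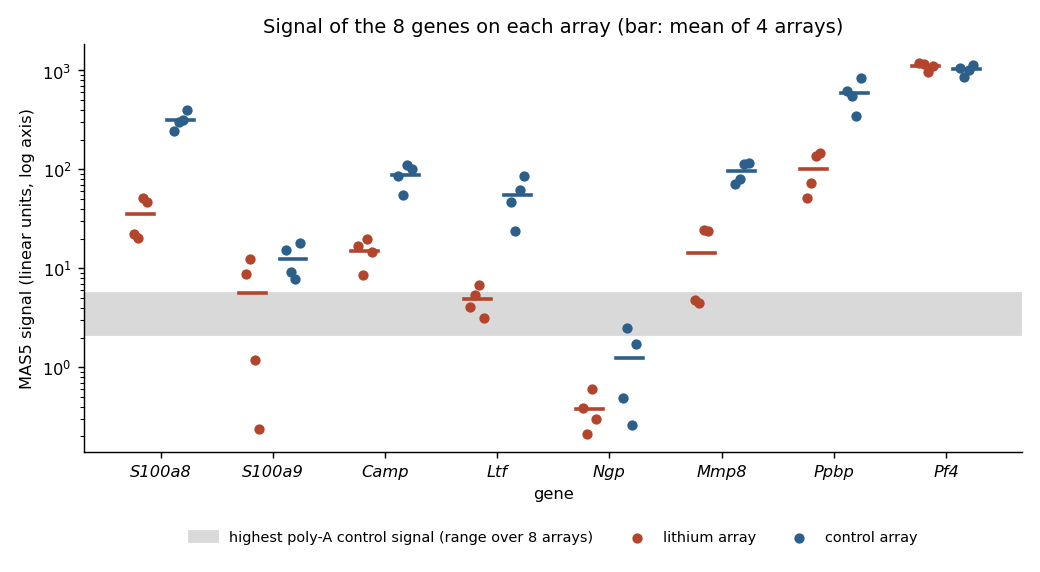
MAS5 signal (log axis) of each of the 8 genes on the 4 lithium arrays (left of each pair) and the 4 control arrays (right), with a bar at the mean and a grey band for the range of the highest poly-A control signal. Lithium and control points are apart for S100a8, Camp, Ltf, Mmp8 and Ppbp, overlap for S100a9, Ngp and Pf4, and for Ngp lie under the band on all arrays but control array 2.

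S100a8 encodes 1 chain of calprotectin. Its signal was 22.4, 20.2, 51.8 and 47.2 on lithium arrays 1 to 4, against 244, 298, 319 and 401 on control arrays 1 to 4. The highest lithium value lay far below the lowest control value, and lithium arrays 3 and 4 were above lithium arrays 1 and 2. S100a8 averaged 35.4 ± 16.4 in lithium and 315 ± 65.1 in controls (SD, n = 4 each), and was 9.57-fold lower (log2 difference -3.26, standard error 0.36, limma adjusted p = 0.0162). With the replicate number as a block the adjusted p was 0.0540, and without control array 3 it was 0.0525.

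S100a9 encodes the partner chain. Its signal was 8.81, 12.4, 1.18 and 0.238 on lithium arrays 1 to 4, against 15.2, 9.27, 7.72 and 17.9 on control arrays 1 to 4. Lithium arrays 1 and 2 overlapped the controls, and lithium arrays 3 and 4 lay under the poly-A level of their own arrays. The means were 5.65 ± 5.90 in lithium and 12.5 ± 4.80 in controls (SD, n = 4 each), and the log2 difference of -1.81 (standard error 0.92) had a limma adjusted p of 0.377. With 16 added to each signal before log2, the difference was -0.42.

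The changes of both chains were compared directly. The change of S100a8 was 1.45 further down than that of S100a9 on the log2 scale (change of S100a8 minus change of S100a9 -1.45, two-sided exact permutation test, with 35 ways to divide 8 arrays evenly, p = 0.429, adjusted p = 0.571 over 4 pairs of genes). In fits without 1 array it was between -2.22 (without lithium array 4) and -0.60 (without lithium array 2). These tests leave the pairing by replicate number aside. Within the 4 numbers the smallest exact two-sided p is 0.125, so that no comparison of 2 genes could pass.

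S100a8 lies at chr3:90669071-90670034 and S100a9 at chr3:90692630-90695721 in the RefSeq annotation of build GRCm38.p6. Their promoters are shown because these genes encode the chains of 1 complex. Each is the 250 bases before the RefSeq start site, chr3:90668821-90669070 on the plus strand and chr3:90695722-90695971 on the minus strand, with matches in capitals to 3 sequences searched on both strands. These were GAGGAAGT (of the kind bound by ETS factors), TTNNGCAA (C/EBP factors) and AGATAA (of the kind bound by zinc finger factors of the GATA family), which were chosen after the promoters had been seen, and no matches overlap in the promoters printed here.
S100a8: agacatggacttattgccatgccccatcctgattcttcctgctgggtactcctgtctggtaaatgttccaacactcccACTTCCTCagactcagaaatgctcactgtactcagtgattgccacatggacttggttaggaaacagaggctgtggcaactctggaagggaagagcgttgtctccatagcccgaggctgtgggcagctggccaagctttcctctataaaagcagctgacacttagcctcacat
S100a9: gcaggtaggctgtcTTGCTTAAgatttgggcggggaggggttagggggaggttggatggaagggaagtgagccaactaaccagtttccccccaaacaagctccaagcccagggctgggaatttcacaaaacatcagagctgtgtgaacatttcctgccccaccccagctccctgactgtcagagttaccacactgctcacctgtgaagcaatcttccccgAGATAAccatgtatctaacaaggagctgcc
S100a8 holds the ETS sequence read on the other strand, 172 to 165 bases before its start. S100a9 holds a C/EBP match 236 to 229 bases before its start and the GATA sequence 30 to 25 bases before it. Over the same window of all 32851 RefSeq promoters, 2.44% held the ETS sequence, 9.56% the C/EBP sequence and 9.99% the GATA sequence. Among the 8 genes these were found in 3, 5 and 2, and a match is a run of letters only.

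Camp encodes cathelicidin, an antimicrobial peptide precursor of specific granules. Its signal was 16.9, 8.48, 19.8 and 14.5 on lithium arrays 1 to 4, against 85.1, 55.7, 110 and 101 on control arrays 1 to 4. All lithium values were below all control values, and all 8 were above the poly-A level. Camp averaged 14.9 ± 4.81 in lithium and 88.0 ± 23.9 in controls (SD, n = 4 each), and was 5.98-fold lower (log2 difference -2.58, standard error 0.32, limma adjusted p = 0.0201). It was the only 1 of the 8 that was lower with the replicate block (adjusted p = 0.0394), against 0.346% of all genes. It did not pass without lithium array 1 (0.0503) or control arrays 1 (0.0634), 3 (0.0591) or 4 (0.0635), and with 16 added the log2 difference was -1.73.

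Ngp, whose protein is related to cathelicidins and is stored in the same granules, had signals of 0.389, 0.213, 0.607 and 0.299 on lithium arrays 1 to 4, against 0.494, 2.51, 0.258 and 1.72 on control arrays 1 to 4. All of these lay under the poly-A level of their arrays, so that no fold is given (limma adjusted p = 0.440). Camp and Ngp were among the 4 pairs of genes compared, but with Ngp under background on every array the difference of their changes is that of Camp alone and is not given as a comparison.

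Ltf encodes lactoferrin, an iron-binding protein of specific granules. Its signal was 4.09, 5.43, 6.86 and 3.15 on lithium arrays 1 to 4, against 47.1, 24.0, 61.8 and 85.4 on control arrays 1 to 4. The groups did not overlap, and only 2 of the 4 lithium values were above the poly-A level. Ltf averaged 4.88 ± 1.62 in lithium and 54.6 ± 25.8 in controls (SD, n = 4 each), and was 10.5-fold lower (log2 difference -3.40, standard error 0.43, limma adjusted p = 0.0201). With the replicate block the adjusted p was 0.0775, and Ltf did not pass without lithium array 1 (0.0534) or control arrays 1 (0.0634), 3 (0.0605) or 4 (0.0525). With 16 added to each signal the log2 difference was -1.68.

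Mmp8 encodes neutrophil collagenase, a granule protease that cleaves fibrillar collagen. Its signal was 4.81, 4.48, 24.7 and 23.6 on lithium arrays 1 to 4, against 71.9, 79.6, 114 and 117 on control arrays 1 to 4. The groups were apart, and the lithium values fell into a low pair (arrays 1 and 2) and a higher pair (arrays 3 and 4). The low pair lay only a little above the poly-A level of its arrays (4.33 on lithium array 1 and 3.99 on lithium array 2). Mmp8 averaged 14.4 ± 11.3 in lithium and 95.6 ± 23.2 in controls (SD, n = 4 each), a log2 difference of -3.14 (standard error 0.66), and its limma adjusted p of 0.0649 did not pass. It passed in 6 of 9 other ways of processing all 8 arrays, such as quantile normalization (adjusted p = 0.0473) and log2 of the signal plus 16 (log2 difference -1.93, adjusted p = 0.0163), and in none of the 8 fits that left out 1 array (0.0673 to 0.155). The changes of Ltf and Mmp8 differed by -0.26 on the log2 scale (exact permutation p = 0.771), a sign that turned with 16 added to each signal (0.25).

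The promoters of Ltf (chr9:111019042-111019291, plus strand) and Mmp8 (chr9:7558179-7558428, plus strand) are shown as those of the 2 genes with the lowest log2 differences among Camp, Ltf, Ngp and Mmp8, with capitals as above.
Ltf: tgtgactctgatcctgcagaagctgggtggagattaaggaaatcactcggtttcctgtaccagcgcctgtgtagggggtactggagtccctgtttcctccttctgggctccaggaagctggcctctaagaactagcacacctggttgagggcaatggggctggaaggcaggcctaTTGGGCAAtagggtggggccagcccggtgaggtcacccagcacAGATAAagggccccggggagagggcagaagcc
Mmp8: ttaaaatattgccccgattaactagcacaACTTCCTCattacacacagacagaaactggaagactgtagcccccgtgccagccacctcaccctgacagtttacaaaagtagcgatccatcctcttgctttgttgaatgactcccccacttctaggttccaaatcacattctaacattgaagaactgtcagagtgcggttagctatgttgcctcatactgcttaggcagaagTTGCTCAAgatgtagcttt
Mmp8 shares the ETS sequence with S100a8, 221 to 214 bases before its start, and has a C/EBP match 19 to 12 bases before it. Ltf has a C/EBP match 75 to 68 bases and the GATA sequence 32 to 27 bases before its start. Camp and Ppbp held none of the 3 sequences in this window.

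Ppbp encodes the precursor of a CXC chemokine that attracts neutrophils. Its signal was 51.2, 73.1, 138 and 145 on lithium arrays 1 to 4, against 615, 551, 350.2 and 831 on control arrays 1 to 4. The highest lithium value was below the lowest control value, that of control array 3. Ppbp averaged 102 ± 46.8 in lithium and 587 ± 198 in controls (SD, n = 4 each), and was 6.02-fold lower (log2 difference -2.59, standard error 0.42, limma adjusted p = 0.0358). Its adjusted p was 0.0872 with the replicate block, and of the fits that left out 1 array it passed in 1, that without lithium array 4 (0.0494, against 0.0604 to 0.0949 in the others).

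Pf4 encodes platelet factor 4, a heparin-binding CXC chemokine. Its signal was 1202, 1151, 974 and 1115 on lithium arrays 1 to 4, against 1067, 858, 1021 and 1146 on control arrays 1 to 4. The groups overlapped, and the values of both lay within a narrow range. Pf4 averaged 1111 ± 98.0 in lithium and 1023 ± 122 in controls (SD, n = 4 each), a log2 difference of 0.12 (standard error 0.11, limma adjusted p = 0.663).

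The changes of both platelet chemokines were set against each other directly. The change of Ppbp minus that of Pf4 was -2.71 on the log2 scale, a ratio of 6.56 between their fold changes (two-sided exact permutation p = 0.0286, the smallest that 4 against 4 arrays allow, adjusted p = 0.0571 over 4 pairs, which did not pass). It was negative for each of the 4 replicate numbers, within which the exact p was 0.125, the smallest possible. With 16 added to each signal it was -2.51 (exact permutation adjusted p = 0.0381, with the pairing left aside). Since the exact p of Ppbp and Pf4 was already the smallest possible, this lower adjusted p came from another pair, S100a8 with S100a9. It is not read as a pass. The adjusted p of 0.0571 was itself lowered by Camp with Ngp, which had the same exact permutation p of 0.0286 and is not given as a comparison. Ppbp (chr5:90768518-90770063) and Pf4 (chr5:90772435-90773383) are neighbours in GRCm38.p6, between the CXC chemokine genes Cxcl5 and Cxcl3. Cxcl5 averaged 139 ± 71.1 in lithium and 166 ± 38.1 in controls (limma adjusted p = 0.670), and Cxcl3 averaged 668 ± 175 in lithium and 558 ± 47.7 in controls (adjusted p = 0.668; SD, n = 4 each). The promoters of Ppbp (chr5:90768268-90768517, plus strand) and Pf4 (chr5:90772185-90772434, plus strand) are shown because these neighbours differed most among the pairs.
Ppbp: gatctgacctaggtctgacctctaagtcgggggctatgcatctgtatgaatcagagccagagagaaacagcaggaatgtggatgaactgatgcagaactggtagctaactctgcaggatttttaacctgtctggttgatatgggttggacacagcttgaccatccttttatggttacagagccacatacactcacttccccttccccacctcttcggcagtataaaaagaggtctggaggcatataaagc
Pf4: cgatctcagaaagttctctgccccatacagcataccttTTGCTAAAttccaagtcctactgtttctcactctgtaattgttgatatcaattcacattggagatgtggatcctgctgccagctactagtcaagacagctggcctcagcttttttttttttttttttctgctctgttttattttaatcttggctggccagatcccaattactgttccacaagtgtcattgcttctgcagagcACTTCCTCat
Pf4 holds the ETS sequence 10 to 3 bases and a C/EBP match 212 to 205 bases before its start.

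Lithium arrays 1 and 2 often stood apart from lithium arrays 3 and 4, a division that no label names. Within arrays 1 and 2 the log2 difference of Mmp8 was -4.03, and within arrays 3 and 4 it was -2.26. The Mmp8 signals on lithium arrays 1 and 2 (4.81 and 4.48) lay only a little above the poly-A level, which limits this split. S100a8 had -3.66 within arrays 1 and 2 and -2.85 within arrays 3 and 4, and Ppbp had -3.25 and -1.93 in the same order. S100a9 ran the other way, at -0.18 for arrays 1 and 2 and at -3.43 for arrays 3 and 4. Its signals on lithium arrays 3 and 4 (1.18 and 0.238) lay under the poly-A level, so that the size of the second value is uncertain. Camp was nearly even (-2.52 and -2.64), Ltf had -2.83 and -3.96, and Pf4 had 0.30 and -0.054. With an interaction term, added after the data were seen, limma gave 0 of the 8 past an adjusted p of 0.05 (Mmp8 0.0890, S100a9 0.289, S100a8 0.383), against 0% of all genes. At an unadjusted p under 0.05 there were 3 of the 8, and 2117 of all 18193 genes (11.6%).

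**Figure D2:**
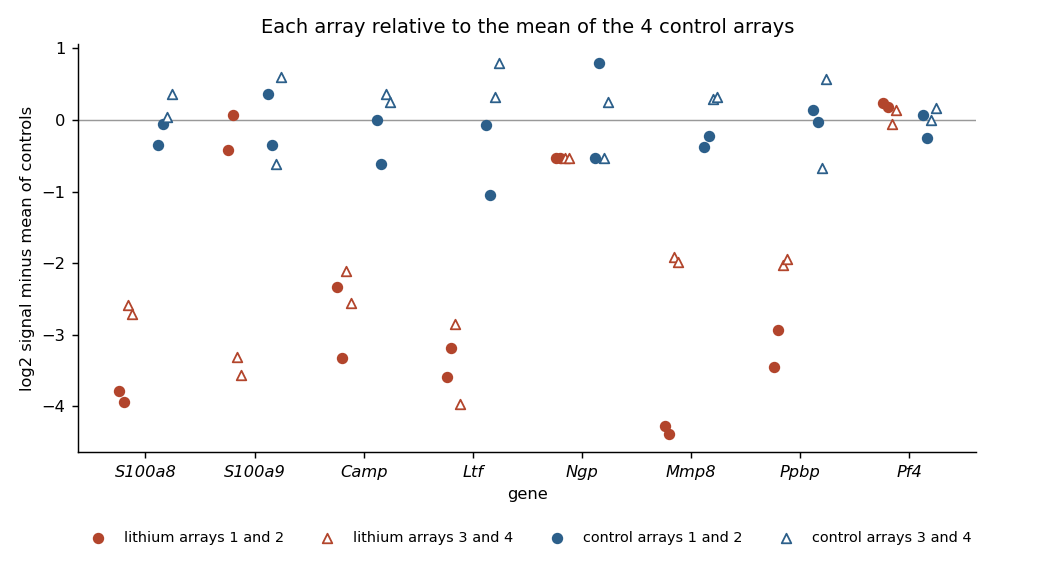
Log2 signal of each array minus the mean log2 signal of the 4 control arrays, for lithium (left of each pair) and control (right), with filled circles for arrays 1 and 2 and open triangles for arrays 3 and 4. For S100a8, Mmp8 and Ppbp the lithium circles lie below the lithium triangles, for S100a9 the triangles lie below the circles, and for Ngp all lithium points are at the floor.

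Surface epithelia also make calprotectin, and a list of 15 epithelial genes was added after the data were seen. None passed limma's adjusted p (of 15, 5 lower and 0 higher at an unadjusted p under 0.05), all 15 had negative log2 differences, and their median was -1.97. Their summed signal was 190 to 1235 on lithium arrays and 721 to 3196 on control arrays. Krt12, a keratin of the corneal epithelium, had 212, 164, 18.2 and 7.62 on lithium arrays 1 to 4, against 341, 129, 29.7 and 353 on control arrays 1 to 4. Krt12 was picked from the list after its values were seen. Lithium arrays 3 and 4 were both below lithium arrays 1 and 2 for 12 of the 15 genes and for S100a9, but not for Perp, Trp63 and Epcam, and they were the higher lithium arrays for S100a8. The part of epithelial RNA in these values was not tested.

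**Figure D3:**
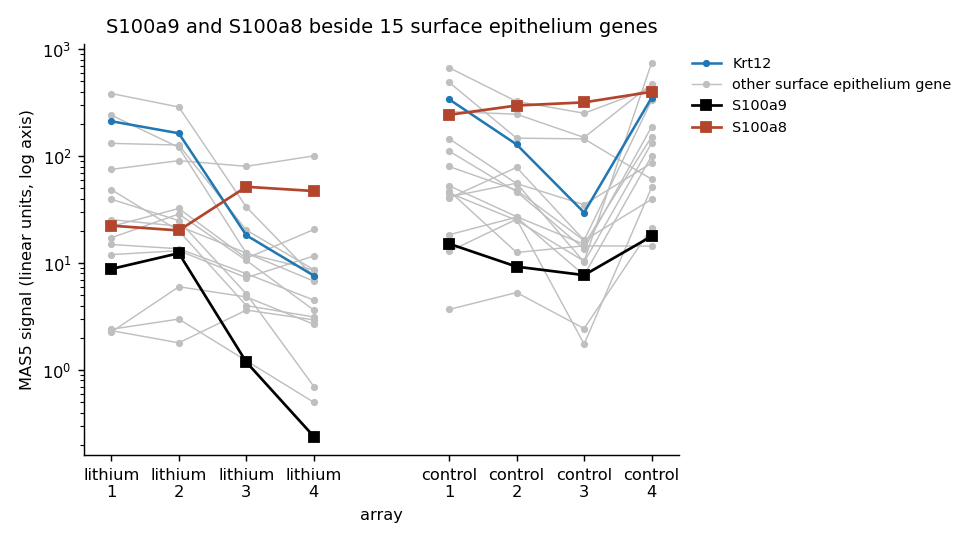
MAS5 signal (log axis) of S100a9, S100a8, Krt12 and 14 other surface epithelium genes on the 4 lithium arrays (left) and the 4 control arrays (right), where lines only join the values of a gene. S100a9 and Krt12 are lowest on lithium arrays 3 and 4, and S100a8 is lowest on lithium arrays 1 and 2.

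Among 18 other granule proteins, 4 were lower, none was higher and 14 did not pass (median log2 difference -0.56, 15 negative). At an unadjusted p under 0.05, 9 were lower and 0 higher, against 12.6% and 9.38% of all genes. The summed signal of the list was 3656 to 4162 on lithium arrays and 4015 to 5385 on control arrays. Lcn2, which had the highest signal of the list, averaged 2123 ± 296 in lithium and 1861 ± 119 in controls (SD, n = 4 each; limma adjusted p = 0.451). Prtn3, a serine protease of primary granules, averaged 0.420 ± 0.109 in lithium and 5.35 ± 2.10 in controls (SD, n = 4 each), and was at least 1.29-fold lower against the poly-A level (limma adjusted p = 0.0183). All lithium signals of Prtn3 were under 1 and were floored to the same value, so that its p rests in part on the floor. On control array 2 its signal of 3.51 also lay under the poly-A level of that array (3.74). Chil3, a chitinase-like protein of mouse neutrophils and macrophages, averaged 1.57 ± 0.831 in lithium and 15.4 ± 7.80 in controls, and was at least 3.52-fold lower (adjusted p = 0.0314). The other 2 lower genes were Cybb (1.71-fold lower, adjusted p = 0.0314) and Cyba (1.64-fold lower, adjusted p = 0.0385), both subunits of the NADPH oxidase and both named after their values were seen. Elane, Mpo and Ctsg, defining primary granule genes, were under the poly-A level on all 8 arrays. With the replicate block, of these 4 genes Chil3 passed (adjusted p = 0.0477) and Prtn3 (0.0650), Cybb (0.0939) and Cyba (0.0611) did not.

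Receptors and adhesion molecules of the neutrophil surface did not pass in either direction (0 of 11 by limma, 2 lower and 2 higher at an unadjusted p under 0.05, 8 negative, median -0.47). Their summed signal was 1133 to 1213 on lithium arrays and 1034 to 1179 on control arrays, most of it from Clec4d, a lectin receptor, and without Clec4d it was 180 to 325 on lithium arrays and 317 to 421 on control arrays. Itgb2, a chain of leukocyte integrins, averaged 113 ± 37.9 in lithium and 235 ± 44.2 in controls (SD, n = 4 each; limma adjusted p = 0.0896), and its partner Itgam 7.46 ± 3.02 in lithium and 16.4 ± 2.42 in controls (adjusted p = 0.0975). Clec4e went the other way, with 74.4 ± 29.4 in lithium and 27.0 ± 6.32 in controls (limma adjusted p = 0.0596). So did Clec4d, with 912 ± 49.6 in lithium and 750 ± 41.6 in controls (adjusted p = 0.0871; SD, n = 4 each). None of these genes, lower or higher, overlapped between the groups. Every lithium signal lay below every control signal for 8.92% of all genes, a share that applies to Itgb2 and Itgam only. The share of all genes in the reverse order, that of Clec4e and Clec4d, was not counted. Cd177 was under the poly-A level on all 8 arrays. In a list of 9 granulocyte transcription factors and growth factor genes, 1 was lower (median -0.46), Csf2rb, the shared beta chain of the GM-CSF, interleukin-3 and interleukin-5 receptors (1.82-fold lower, limma adjusted p = 0.0465, and 0.0822 with the replicate block), and Gfi1 was under the poly-A level throughout. At an unadjusted p under 0.05, 3 of that list were lower and 0 higher. Of 12 receptors and partners of the 8 proteins, such as Tlr4, which calprotectin activates, none passed (3 lower and 1 higher at an unadjusted p under 0.05, median -0.11). Tlr4 averaged 106 ± 8.14 in lithium and 119 ± 15.5 in controls (SD, n = 4 each; limma adjusted p = 0.537).

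In the list of 19 further platelet and megakaryocyte genes 1 was lower, none was higher and 18 did not pass (median -0.40, and 7 lower and 0 higher at an unadjusted p under 0.05). That gene, Itgb3, a chain of the platelet fibrinogen receptor that other cells also carry, averaged 89.8 ± 14.3 in lithium and 212 ± 36.6 in controls (SD, n = 4 each; 2.36-fold lower, limma adjusted p = 0.0201, and 0.0764 with the replicate block). The summed signal of this platelet list was 447 to 713 on lithium arrays and 1031 to 1259 on control arrays. Most of it came from Itgb3, Thbs1 (mean 285 in lithium and 410 in controls) and F2r (135 in lithium and 268 in controls). In controls, 11 of the 19 genes averaged under 10, so that the sum says little of most of the list. Gp6, Tubb1, Treml1, F2rl2 and Gata1 were under the poly-A level on all 8 arrays, while Itga2b, a chain of the same receptor, lay above it on all of them, with 20.5 ± 6.37 in lithium and 18.8 ± 2.55 in controls (limma adjusted p = 0.903). Red cell genes had a median of -0.01 over 7, of which 0 passed limma's adjusted p and 0 an unadjusted p under 0.05.

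Of 11 other S100 genes 1 was lower, S100a4 (1.63-fold lower, limma adjusted p = 0.0365, and 0.112 with the replicate block), and the median was -0.34. At an unadjusted p under 0.05, 3 of these S100 genes, 2 of the monocyte genes below and 4 of the microglia and macrophage genes below were lower, and 0 of each were higher. Among 7 monocyte genes 1 was lower, Chil3, which is also in the granule list (median -0.37), with a summed signal of 382 to 616 on lithium arrays and 659 to 856 on control arrays, and Ccr2 and Fcnb under the poly-A level throughout. Most of this monocyte sum came from Vcan, which averaged 434 in lithium and 548 in controls and did not pass (limma adjusted p = 0.320). Trem2 (2.29-fold lower, limma adjusted p = 0.0335, and 0.0610 with the block) and its adaptor Tyrobp (1.77-fold lower, adjusted p = 0.0374, and 0.0863 with the block) were the 2 lower of 15 microglia and macrophage genes (median -0.26), whose summed signal was 6047 to 7478 on lithium arrays and 6993 to 8799 on control arrays. Border macrophage genes, beside Pf4, had 0 of 12 past limma's adjusted p (3 lower and 1 higher at an unadjusted p under 0.05, median -0.32), with a summed signal of 662 to 838 on lithium arrays and 907 to 1061 on control arrays and Cd209f and Mgl2 under the poly-A level. Maf, which had the highest signal of the border macrophage list, averaged 438 in lithium and 446 in controls (limma adjusted p = 0.955). Lymphocyte genes (0 of 9, median -0.34) and mast cell genes (0 of 8, median 0.48) did not pass limma's adjusted p, with 0 lymphocyte genes and 1 mast cell gene at an unadjusted p under 0.05. The part of these cell types in the values of the 8 genes was not tested.

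**Figure D4:**
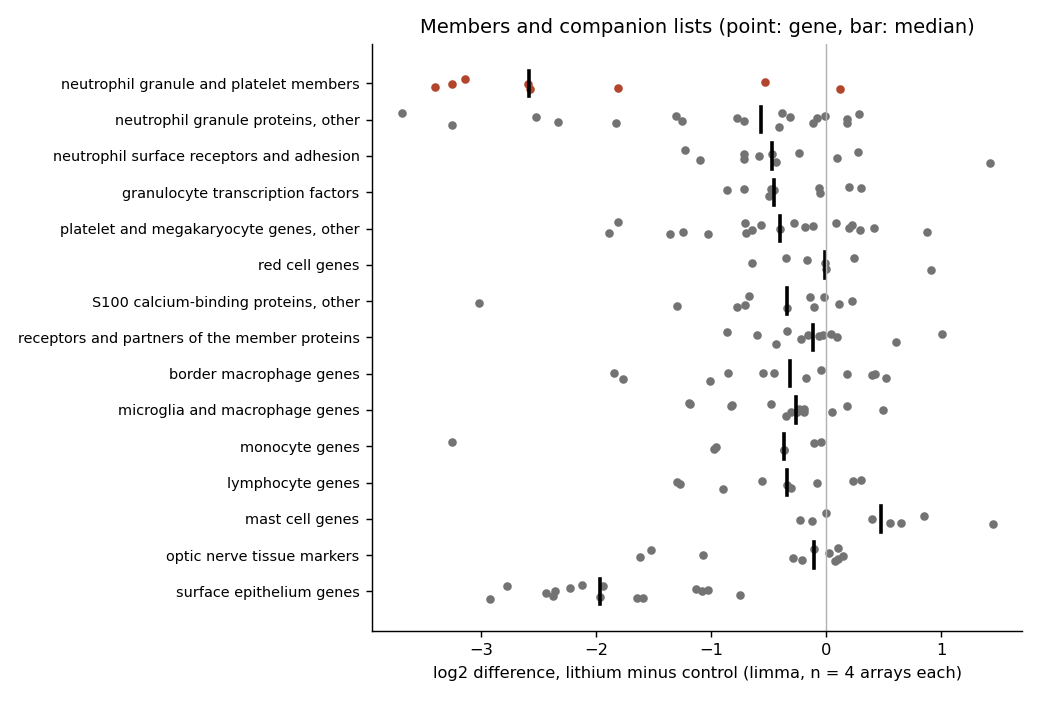
Log2 difference, lithium minus control, of each of the 8 genes (top row) and of the genes of 14 companion lists, where each point is 1 gene and black bars mark medians. The 8 genes have a median of -2.59, the surface epithelium genes -1.97, the other granule proteins -0.56 and the mast cell genes 0.48.

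For the 3 genes whose higher group averaged a signal of at least 200, the most alike patterns were sought among 5430 genes of that level, by the SD over the 8 arrays of the log2 ratio to the gene. Those most like S100a8 were Inmt (SD 0.39), Ncan (0.40) and D17H6S56E-5 (0.41). For Ppbp they were Col3a1 (0.38), Tpm2 (0.44) and Cxcl12 (0.45), and for Pf4 they were Serbp1 (0.07), Maea (0.08) and Fam126a (0.08). These are descriptions over 8 arrays of 2 groups, and a gene with a like difference between the groups scores well.

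The 4 lower genes differed in how often they passed limma's adjusted p under other processing. S100a8 passed in 9 of 10 alternatives that kept all 8 arrays and in 7 of the 8 fits without 1 array. Camp passed in 9 of 9 and in 4 of 8, Ltf in 8 of 9 and in 4 of 8, and Ppbp in 9 of 10 and in 1 of 8. Camp and Ltf were not tested where a mean signal of 200 was required first.

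**Figure D5:**
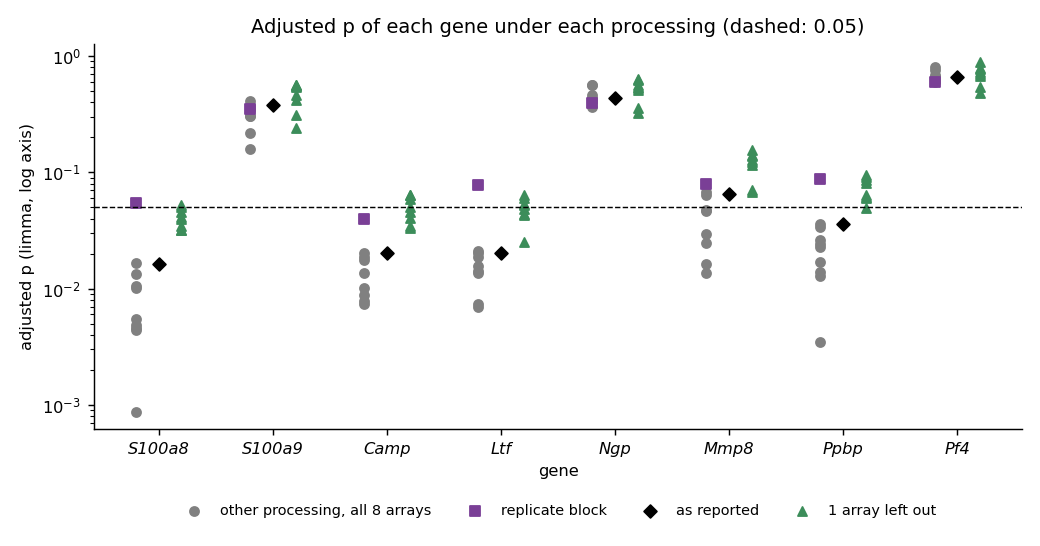
Adjusted p from limma (log axis) of each of the 8 genes as reported (diamonds), with the replicate number as a block (squares), under other processing of all 8 arrays (circles) and with 1 array left out (triangles), with a dashed line at 0.05. Under the block only Camp lies below the line, Mmp8 lies on both sides of it, and S100a9, Ngp and Pf4 lie above it throughout.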

How the data were processed

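RNA of 4 lithium and 4 control samples was measured on 8 arrays. The authors deposited MAS5 intensities, linear and scaled to a common trimmed mean, which they assembled in Agilent GeneSpring GX. Of 45101 probe sets, 64 controls were left out and 45037 tested. Intensities were floored at 1 (14.5% of values), log2-transformed and fitted on the group alone with limma 3.58.1 (lmFit, eBayes) under R 4.3.3, with Benjamini-Hochberg adjustment over all probe sets. Each fold change was taken from the difference of mean log2 signals. A gene was represented by the probe set with the highest mean log2 signal among those with 1 symbol. Where all lithium signals lay under the highest poly-A control signal of their arrays, the fold is a lower bound against that signal.

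The 8 genes, the companion lists and the tests were chosen with earlier results of these data known. Named besides the 8 were of each list up to 2 rising and 2 falling genes past the threshold, by lowest adjusted p, and the 3 genes most alike for each gene at a signal of 200. The epithelial list, the genes named in it, the sum without Clec4d, the neighbours Cxcl5 and Cxcl3 and genes named without a passed test were chosen after values were seen. Pairs of genes were compared by two-sided exact permutation tests over arrays, without the pairing, and after the data were seen also by sign changes within replicate numbers.

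Neither labels nor methods say that a replicate number marks shared animals. The deviations from the group mean were correlated between arrays of equal number in each of 4 pairs (0.130 to 0.197). Arrays of unequal number were not compared in this way, so these correlations cannot show that equal numbers are pairs. The numbers were taken as pairs as an alternative, and a fit with the number as a block was run. The other alternatives left out each array in turn, quantile-normalized or median-centred the signals, required a level of 200 before testing, added 16 to the signal, averaged the probe sets of a gene, dropped _x_at probe sets, used a trended and robust variance or array weights, or gave arrays 3 and 4 a term of their own. Sequences and positions are from RefSeq (GRCm38.p6), in which all 8 genes were found. Plots used Python 3.11.15 and matplotlib 3.10.9. The number of arrays limits the precision.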

Additional observations from a re-analysis of the deposited data

How the results depend on the processing

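Of the 8 genes, 4 passed limma's adjusted p as reported. There were 2 (S100a8 and Ppbp, of the 3 tested) when a level of 200 was required before the test, 1 (Camp) with the replicate block, and 0 to 4 in fits without 1 array. The 0 was without control array 3, where limma gave 5 of the 8 at an unadjusted p under 0.05, beside 7399 of the 45037 probe sets. The other alternatives gave 4 or 5, the fifth being Mmp8. Of all probe sets 1050 passed as reported, 685 with the level required, 1735 with log2 of the signal plus 16, 2834 with the term for arrays 1 and 2 against 3 and 4, 124 with the replicate block, and 169 to 617 over the fits without 1 array. With 16 added, the differences of paired changes were -2.30 for S100a8 and S100a9, -1.66 for Camp and Ngp and -2.51 for Ppbp and Pf4 (exact permutation adjusted p = 0.0381 each, with the pairing left aside), and 0.25 for Ltf and Mmp8. Adding 16 by its construction brings the change of genes at low signal, such as S100a9 (-0.42) and Ngp (-0.07), toward 0, and Ngp was under background on every array, so that the first 2 differences are not read as comparisons. The exact permutation adjusted p of Ppbp and Pf4 fell from 0.0571, itself lowered by the pair Camp and Ngp, only through the pair S100a8 and S100a9. The lower value is not read as a pass. Within replicate numbers as a block none of the 4 passed (adjusted p = 0.25 for Ppbp and Pf4). When 1 array was left out, the difference of Ltf and Mmp8 was -0.74 to 0.32. The log2 difference of Pf4 was -0.054 within arrays 3 and 4, and no other log2 difference of the 8 genes turned its sign under any alternative run. The cause of these moves was not tested. Signals near the poly-A level limit Ngp on all arrays, S100a9 and Ltf in lithium, and Mmp8 on lithium arrays 1 and 2.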
